A study of Mus musculus with 8 samples.

Results

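The IFIT genes (interferon-induced proteins with tetratricopeptide repeats) form a small family of interferon-stimulated genes, and the 6 mouse genes followed here, Ifit1, Ifit2, Ifit3, Ifit3b, Ifit1bl1 and Ifit1bl2, were chosen by name from the 54532 genes of the deposited count tables. All 6 lie side by side on chromosome 19 and all 6 were among the 14591 genes with enough counts to be tested, although Ifit1bl2 reached the filter in 4 libraries only, all of the Trex1-KO genotype (2 of Trex1-KO, 1 with H151 and 1 with SN-011). The RNA came from bone marrow-derived macrophages (BMDMs) of C57BL/6J-background mice aged 6 to 8 weeks, differentiated with L929 cell-conditioned medium. There were 4 groups of 2 libraries each. WT macrophages came from wild-type mice and, per the study's methods, received the solvent DMSO. Trex1-KO macrophages came from Trex1-/- mice, which lack the DNA exonuclease Trex1, also with DMSO. Trex1-KO+H151 and Trex1-KO+SN-011 macrophages were Trex1-KO cells exposed for 12 h to 1 of 2 antagonists of the signalling protein STING. H151 was given at 500 nM, and the methods give the same figure for SN-011. No WT cells received an antagonist. The treatment entry of the SN-011 libraries is worded differently from the one that the other 6 libraries share, and the labels name no batch for any library. Anything else that set the SN-011 libraries apart from the other 6 cannot be told apart from SN-011 itself, also in the comparison with H151. The paper calls the replicates independent experiments, while the labels do not say whether they came from different mice or cultures, so p-values measure only the spread between these libraries.

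IFIT proteins are made in response to type I interferon and to direct IRF3 activation, and they restrict viruses by acting on RNA and translation. Ifit1 binds RNA whose 5′ end lacks the ribose methyl group of mature host caps, Ifit1 and Ifit2 can bind the translation initiation factor eIF3, and Ifit3 acts as a partner and adaptor of other IFIT proteins. Trex1 degrades DNA in the cytosol. Without it, DNA can activate cGAS, whose product cGAMP activates STING, and STING signalling through TBK1 and IRF3 induces interferon-β, which in turn drives interferon-stimulated genes through the transcription factor complex ISGF3. H151 blocks STING by reacting with one of its cysteines, whereas SN-011 occupies the pocket that binds cGAMP. The comparisons ask how far the family was raised without Trex1 and how much of that level remained with each antagonist.

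In the mouse genome build GRCm38 (GENCODE M21 annotation), the family spans 99.3 kb of chromosome 19, from 34550694 to 34650009. Ifit2 (ENSMUSG00000045932, chr19:34550694-34576419, plus strand) comes first, followed by Ifit3 (ENSMUSG00000074896, chr19:34583531-34588731, plus strand) and Ifit1bl1 (ENSMUSG00000079339, chr19:34592891-34601956, minus strand). Ifit3b (ENSMUSG00000062488, chr19:34607970-34613401, plus strand), Ifit1bl2 (ENSMUSG00000067297, chr19:34617049-34640743, minus strand) and Ifit1 (ENSMUSG00000034459, chr19:34640871-34650009, plus strand) complete the row. No exon of any of the 6 overlaps an exon of another gene, so a read inside them has 1 annotated owner by position.

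Ifit1bl2 and Ifit1 point away from each other and their annotated starts are separated by only 127 bases. ISGF3 binds the interferon-stimulated response element (ISRE), whose core is a pair of GAAA half-sites 2 bases apart. This core was searched on both strands as GAAANNGAAA, which reads TTTCNNTTTC on the opposite strand. The sequences below are reference sequence from the RefSeq promoter windows (GRCm38.p6), shown because they hold ISRE-like cores of the 5 genes that have any; 1 further core of Ifit1bl1, before its second start, is not among them. Each is written 5′ to 3′ on the strand of the named gene, in lower case with ISRE-like cores in capitals. The first is the gap between Ifit1bl2 and Ifit1, and the others are the 200 bases before the RefSeq start site.
Ifit1 and Ifit1bl2 gap, chr19:34640744-34640870, plus strand: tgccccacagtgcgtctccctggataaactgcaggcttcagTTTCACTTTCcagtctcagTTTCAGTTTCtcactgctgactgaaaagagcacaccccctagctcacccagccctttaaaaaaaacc
Ifit3, chr19:34583329-34583528, plus strand: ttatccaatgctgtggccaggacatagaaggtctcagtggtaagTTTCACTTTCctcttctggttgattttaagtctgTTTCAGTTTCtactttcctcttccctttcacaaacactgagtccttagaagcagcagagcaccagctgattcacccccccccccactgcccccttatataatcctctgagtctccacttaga
Ifit3b, chr19:34607757-34607956, plus strand: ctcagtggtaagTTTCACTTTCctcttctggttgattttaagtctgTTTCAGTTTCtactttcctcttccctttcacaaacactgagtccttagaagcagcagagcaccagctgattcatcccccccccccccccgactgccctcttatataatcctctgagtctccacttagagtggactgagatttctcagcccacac
Ifit1bl1, chr19:34601969-34602168, minus strand: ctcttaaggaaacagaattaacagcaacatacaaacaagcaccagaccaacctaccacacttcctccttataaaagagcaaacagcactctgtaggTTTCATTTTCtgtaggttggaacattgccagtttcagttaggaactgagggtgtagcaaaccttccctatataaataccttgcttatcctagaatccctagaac

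The 127-base gap held 2 ISRE-like cores, which begin 104 and 85 bases before the RefSeq start of Ifit1. Read from the other strand, the same cores begin 70 and 51 bases before the start of Ifit1bl2, so these 2 genes share them. Ifit3 and Ifit3b each held 2 cores with the same spacing, at 156 and 122 bases before the start of Ifit3 and at 188 and 154 bases before that of Ifit3b. Their printed stretches aligned over 168 bases, of which 166 were identical (98.8%). Ifit1bl1 had a single core, 104 bases before its first start site, and another single core 23 bases before its second RefSeq start. Neither of the RefSeq windows of Ifit2 held these letters, which says nothing of elements outside the windows or of variants with other letters inside them.

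In all, 6 of the 9 member windows, each 300 bases long (250 before and 50 after a start site), held an ISRE-like core, against 3.44% of 32851 windows of all genes. At least 2 cores stood in 4 of the 9 member windows, against 0.225% of all windows, and the windows of Ifit1 and Ifit1bl2 count the same 2 cores. Among 16 windows of other interferon-stimulated antiviral genes, 10 held a core (62.5%) and 3 held at least 2 (18.75%). The GAS-like motif TTCNNNGAA, searched for comparison, was present in 8.30% of all windows and in 1 member window, that of Ifit2 at 241 bases before the start, where it overlapped no ISRE-like core. A match is a description of the letters and not evidence of binding.

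**Figure D1:**
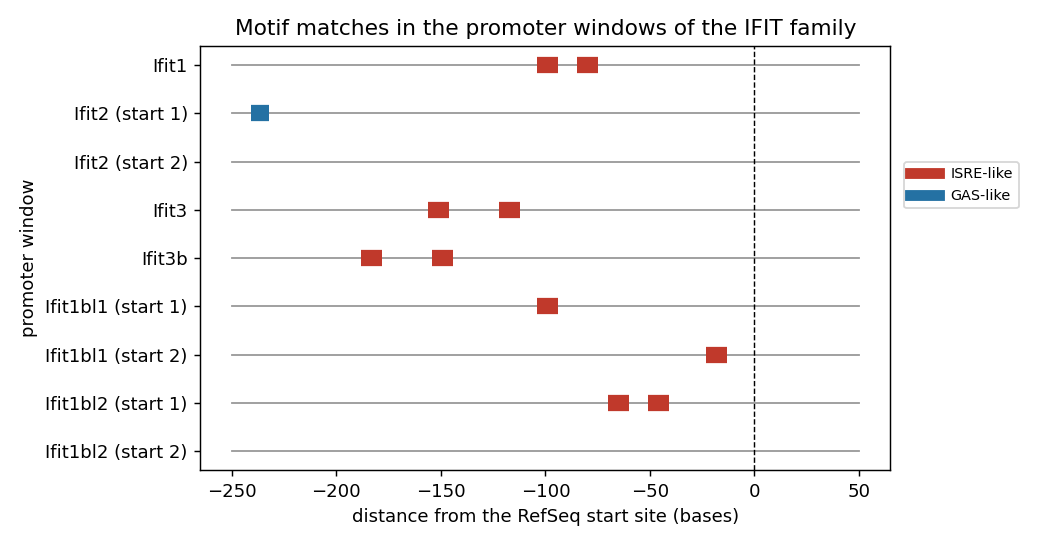
Positions of motif matches in the 9 RefSeq promoter windows of the IFIT family, with the distance from the start site in bases on the horizontal axis and 1 line per window. Red blocks are ISRE-like cores and the blue block is a GAS-like match; paired cores stand before Ifit1, Ifit3, Ifit3b and Ifit1bl2, a single core before each start of Ifit1bl1, and none in the windows of Ifit2.

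Ifit3 and Ifit3b are near-copies, which bears on how well their counts can be separated. Their longest transcripts aligned over 1697 bases with 98.0% identity, and 18.5% of the 150-base windows of the Ifit3 transcript, the read length used, occurred unchanged in Ifit3b. For Ifit3b that share was 16.0%. Ifit1bl1 and Ifit1bl2 were 90.5% identical over 2165 bases, but no 150-base window of Ifit1bl1 occurred in another gene. Ifit1 and Ifit1bl2 shared 31 windows (1.24% of those of Ifit1 and 0.963% of those of Ifit1bl2). Ifit2 shared none. Read pairs from shared stretches could have been dropped or placed on the wrong copy, so the split between Ifit3 and Ifit3b is uncertain.

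The libraries held 11845470 to 17284863 counts on genes, the WT libraries 13146808 and 14252747. The knockout could not be checked from the counts, because Trex1 had 0 counts in all 8 libraries, WT included, and its annotated exons all lie within exons of Atrip. Mean Atrip was 67.5 ± 3.92 CPM (counts relative to library size, scaled by edgeR's TMM factors) without Trex1, against 15.8 ± 2.32 CPM for WT (SD, n = 2 libraries each), with a log2 fold change of 2.10 ± 0.10 (SE, adjusted p = 7.16e-09 in edgeR). It stood at 56.0 CPM in the H151 group and 54.2 CPM in the SN-011 group. Summed macrophage markers were at 29944 to 32109 CPM in every library, a sum made up mostly of Lyz2. Without Trex1, 3 of these 8 markers were higher against WT in edgeR, Fcgr1 by 1.14 ± 0.08, Cd68 by 0.44 ± 0.06 and Adgre1 by 0.19 ± 0.05 (log2 fold change ± SE), and Fcgr1 was lower than in Trex1-KO with H151 and with SN-011, at -0.50 ± 0.08 and -0.49 ± 0.08. Markers of other cells also differed between genotypes: the 5 fibroblast and stromal markers summed to 2066 to 2262 CPM in WT and 847 to 1044 CPM in Trex1-KO, and the 7 neutrophil and progenitor markers to 7.64 to 7.85 CPM in WT and 49.9 to 70.2 CPM in Trex1-KO. With the antagonists these sums stayed at 919 to 1198 CPM and 63.5 to 79.7 CPM. In Trex1-KO against WT, 4 of the 5 stromal markers and all 4 neutrophil and progenitor markers with enough counts were called. The stromal sum was made up mostly of Col1a1 and Col1a2, with WT means of 905 and 1130 CPM. The stromal markers did not all fall: Dcn alone of the 5 had a higher mean in Trex1-KO, 2.99 ± 0.136 CPM, than in WT, 2.17 ± 0.571 CPM (SD, n = 2 libraries each). The 5 T and NK cell markers, of which only 1 had enough counts to be tested, summed to 33.3 to 34.0 CPM in WT and 18.1 to 21.6 CPM in the other libraries. The 5 dendritic cell markers summed to 1.56 to 3.35 CPM over all 8 libraries, and of the 2 tested, Xcr1 was called higher in Trex1-KO (1.10 CPM, against 0.144 CPM in WT) and Zbtb46 was not called (0.565 CPM, against 1.43 CPM in WT). Markers of B cells and of mast cells and basophils summed to at most 2.15 CPM in any library. The part of any of these markers in the results was not tested. In bulk RNA, fewer cells of a type and less RNA per cell cannot be told apart.

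Ifit1, Ifit2, Ifit3, Ifit3b and Ifit1bl1 were higher in Trex1-KO than in WT macrophages (quasi-likelihood test of edgeR, p adjusted by Benjamini-Hochberg over all tested genes, under 0.05), against 9.27% of all tested genes called higher in this comparison. Ifit1bl2 was called as well, but it reached the filter on low counts in no WT library, so its call is not counted here with the other 5. The summed family took 2.91 and 1.94 of every 10000 counts in WT and 12.5 and 11.3 in Trex1-KO. Ifit1, Ifit2, Ifit3 and Ifit3b rose between 4.68-fold and 5.71-fold, while Ifit1bl1 rose 1.77-fold.

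Ifit2, which like Ifit1 can bind eIF3 and is also linked to cell death, had 126 and 76.9 CPM in WT and 601 and 555 CPM in Trex1-KO. The groups lay far apart, and the 2 WT libraries differed from each other by 1.64-fold. The log2 fold change was 2.51 ± 0.18 (SE, adjusted p = 3.98e-07 in edgeR), from a mean of 101 ± 34.7 CPM to 578 ± 32.5 CPM (SD, n = 2 libraries each). Ifit3, the adaptor member, had 70.3 and 52.2 CPM in WT and 349.9 and 321 CPM in Trex1-KO. Its Trex1-KO libraries were again well above both WT libraries, with a log2 fold change of 2.45 ± 0.13 (SE, adjusted p = 2.01e-08 in edgeR). Its near-copy Ifit3b had 15.4 and 10.5 CPM in WT and 59.99 and 60.9 CPM in Trex1-KO. The 2 Trex1-KO values of Ifit3b were almost equal, and the log2 fold change was 2.23 ± 0.14 (SE, adjusted p = 1.04e-07 in edgeR).

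Ifit1, which binds RNA with incomplete caps, had 52.1 and 32.2 CPM in WT and 242 and 196 CPM in Trex1-KO. Replicate 1 was the higher library in both groups and the groups did not overlap. The log2 fold change of Ifit1 was 2.38 ± 0.17 (SE, adjusted p = 3.82e-07 in edgeR).

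Ifit1bl1 rose less than these 4 genes, and Ifit1bl2 had too few counts to be placed against them. Ifit1bl1 had 17.5 and 15.6 CPM in WT and 26.8 and 31.5 CPM in Trex1-KO. The groups did not overlap, but the difference was smaller, with a log2 fold change of 0.82 ± 0.20 (SE, 95% interval 0.40 to 1.24, adjusted p = 0.00985 in edgeR), and its interval lay wholly below those of Ifit1, Ifit2, Ifit3 and Ifit3b, of which the lowest began at 1.92. Without WT replicate 2 or Trex1-KO replicate 2, the adjusted p of Ifit1bl1 was 0.107 and 0.0621. Ifit1bl2 was nearly silent: it had 4 and 0 counts in WT and 13 and 19 counts in Trex1-KO. Per unit of depth, its summed counts were 7.98 times as high in Trex1-KO (exact 95% interval 2.83 to 31.1, counting error only), and the 95% interval of its log2 fold change in edgeR, 1.26 to 4.56, covered the values of the 4 genes. The edgeR adjusted p for Ifit1bl2 was 0.0175, and it was 0.164 without WT replicate 2, 0.0908 without Trex1-KO replicate 2 and 0.0595 in DESeq2, so this call rests on single libraries and on the tool.

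**Figure D2:**
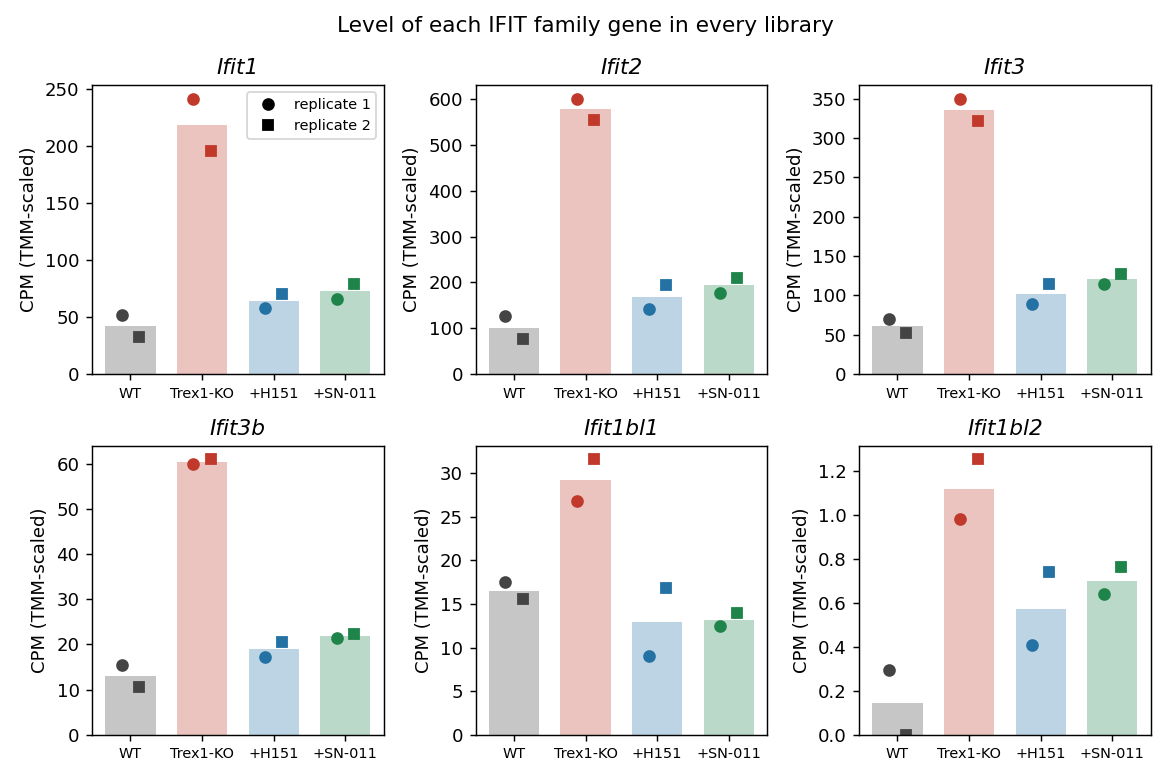
Level of each IFIT family gene in every library, in TMM-scaled CPM on an axis from 0 that differs between panels. Bars are group means, circles replicate 1 and squares replicate 2. The Trex1-KO libraries are the highest in all 6 panels, and for Ifit1bl1 the antagonist libraries lie around or below WT. The share of all tested genes with such a separation was not computed, and Ifit1bl2 reached the filter only in Trex1-KO genotype libraries.

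The IFIT genes other than Ifit1bl2, which was not called, were lower in both antagonist groups than in Trex1-KO. With H151, 5 of the 6 genes fell against Trex1-KO, where 1.84% of all tested genes were called lower. Ifit1, Ifit2, Ifit3 and Ifit3b fell to about the same extent, by 3.18-fold to 3.43-fold, and Ifit1bl1 fell 2.23-fold. The family's share of the library was 3.15 and 4.12 per 10000 counts.

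Ifit2 had 142 and 194 CPM with H151. Both values were under those of Trex1-KO, and its log2 fold change against Trex1-KO was -1.78 ± 0.18 (SE, adjusted p = 4.83e-05 in edgeR). Ifit3 had 89.3 and 114 CPM, Ifit3b 17.3 and 20.5 CPM, and Ifit1 57.9 and 70.8 CPM. Replicate 2 was the higher H151 library for every member, and no H151 value reached a Trex1-KO value. The share of all tested genes without overlap was not computed for WT, H151 or SN-011 against Trex1-KO. The log2 fold changes were -1.72 ± 0.12 for Ifit3, -1.67 ± 0.13 for Ifit3b and -1.76 ± 0.17 for Ifit1 (SE), with edgeR adjusted p between 8.25e-06 and 3.04e-05.

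Ifit1bl1 had 9.03 and 16.8 CPM with H151, a difference of 1.86-fold that was the widest between replicates of any group among the 5 genes other than Ifit1bl2. Its log2 fold change against Trex1-KO was -1.15 ± 0.20 (SE, adjusted p = 0.00555 in edgeR), and between -1.69 and -0.79 when single libraries were left out. Ifit1bl2 had 5 and 11 counts and was not called, with an edgeR log2 fold change of -0.93 ± 0.58 (SE, adjusted p = 0.749). The ratio of its summed counts per unit of depth was 0.523 (exact 95% interval 0.268 to 0.982, counting error only).

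With SN-011, the same count of 5 of 6 genes fell against the same Trex1-KO libraries, where 2.22% of all tested genes were called lower. Ifit2 had 177 and 209.8 CPM with SN-011, Ifit3 115 and 127 CPM, and Ifit3b 21.4 and 22.4 CPM. Each lay below its Trex1-KO libraries and the replicates of this group were close to each other. The log2 fold changes were -1.58 ± 0.18 for Ifit2, -1.47 ± 0.12 for Ifit3 and -1.47 ± 0.13 for Ifit3b (SE), with edgeR adjusted p between 2.23e-05 and 0.000148. Ifit1 had 66.0 and 79.3 CPM and a log2 fold change of -1.60 ± 0.16 (SE, adjusted p = 7.73e-05 in edgeR). Ifit1bl1 had 12.4 and 13.9 CPM. Its log2 fold change was also -1.15 ± 0.20 (SE, adjusted p = 0.0056 in edgeR), and the adjusted p was 0.151 without SN-011 replicate 1. Ifit1bl2 had 11 and 9 counts and was not called, with a count ratio of 0.613 (exact 95% interval 0.332 to 1.11, counting error only).

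**Figure D3:**
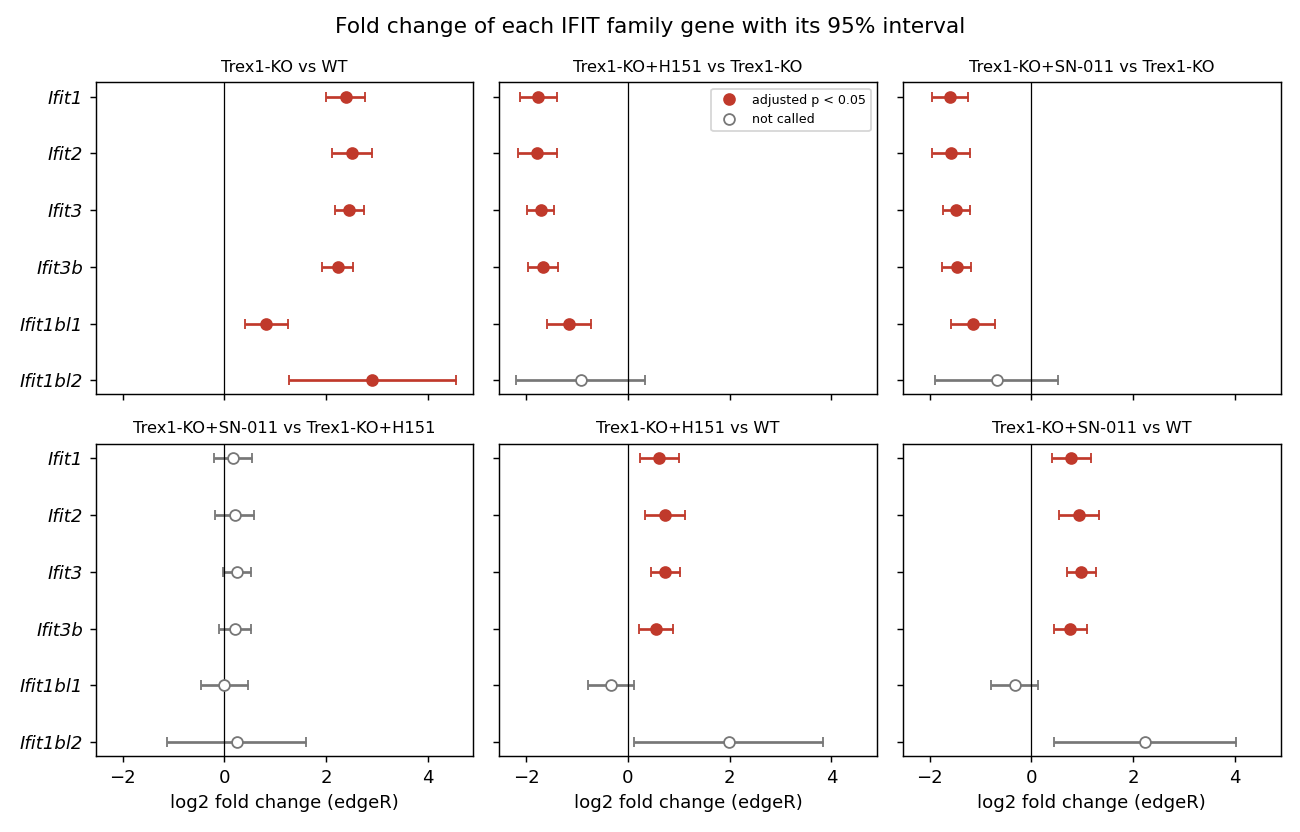
Log2 fold changes of the 6 IFIT genes from edgeR in the 6 comparisons, with bars for the 95% interval and filled points for adjusted p below 0.05. Ifit1, Ifit2, Ifit3 and Ifit3b move together at 2.23 to 2.51 in Trex1-KO vs WT and at -1.78 to -1.47 with the antagonists, Ifit1bl1 stands at 0.82 and -1.15, and the intervals of Ifit1bl2 are the widest.

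The 2 antagonists were compared directly at the same time point and nominal dose, in 1 comparison of 6 genes. None of the 6 IFIT genes was called (0.158% of all tested genes were, in either direction), 0 had an unadjusted p under 0.05 in edgeR, and 0 were called with DESeq2. The estimates for SN-011 relative to H151 were 0.17 for Ifit1 (95% interval -0.21 to 0.54), 0.20 for Ifit2 (-0.18 to 0.58), 0.24 for Ifit3 (-0.03 to 0.51) and 0.20 for Ifit3b (-0.11 to 0.52) on the log2 scale. For Ifit3 and Ifit3b the SN-011 libraries both lay above the H151 libraries, as they did for 19.7% of all tested genes, whereas for Ifit1, Ifit2, Ifit1bl1 and Ifit1bl2 the groups overlapped. The estimate for Ifit1bl1 was -0.00 (interval -0.46 to 0.46) and that for Ifit1bl2 was 0.24 (interval -1.12 to 1.61). For Ifit1, Ifit2, Ifit3 and Ifit3b the upper bounds lay between 0.51 and 0.58.

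In the fit of all 8 libraries, Ifit1, Ifit2, Ifit3 and Ifit3b stayed above the WT level with both antagonists. With H151, 4 of 6 genes were still higher than in WT (6.79% of all tested genes were called higher), by 0.62 ± 0.18 for Ifit1, 0.73 ± 0.18 for Ifit2, 0.74 ± 0.13 for Ifit3 and 0.56 ± 0.15 for Ifit3b (log2 fold change ± SE, adjusted p between 0.00181 and 0.0391 in edgeR). That count was less firm than the others: it was 1 without WT replicate 2 or H151 replicate 2, 2 without either SN-011 library, and 2 with DESeq2, and Ifit3 was called in every fit that left out a library (adjusted p of at most 0.0306 in edgeR). With SN-011, 4 of 6 were higher than in WT (6.18% of all tested genes), by 0.78 ± 0.18 for Ifit1, 0.93 ± 0.18 for Ifit2, 0.98 ± 0.13 for Ifit3 and 0.76 ± 0.15 for Ifit3b (log2 fold change ± SE, adjusted p between 0.000179 and 0.00984 in edgeR). This count was 2 without WT replicate 2 or SN-011 replicate 2.

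The other 2 genes, Ifit1bl1 and Ifit1bl2, were not called against WT with either antagonist. The log2 fold change of Ifit1bl2 was 1.98 ± 0.86 with H151 and 2.22 ± 0.83 with SN-011 (SE, adjusted p = 0.175 and 0.113 in edgeR), resting on 4 and 0 counts in WT. Without WT replicate 2 these values were 0.96 and 1.20, and without WT replicate 1, which leaves WT at 0 counts, they have no meaning as a size. The mean of Ifit1bl1, 12.9 ± 5.52 CPM in H151 libraries and 13.2 ± 1.04 CPM in SN-011 libraries, was below its WT mean of 16.5 ± 1.36 CPM (SD, n = 2 libraries each). Neither difference was called, with a log2 fold change of -0.33 ± 0.21 in each (SE, adjusted p = 0.376 with H151 and 0.399 with SN-011 in edgeR). The H151 value turned on 1 library: it was -0.88 without H151 replicate 2 (adjusted p = 0.0039 in edgeR) and 0.02 without H151 replicate 1.

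Expressed as a share of the mean rise from WT to Trex1-KO, Ifit1, Ifit2, Ifit3 and Ifit3b kept 12.5%, 14.0%, 14.8% and 12.6% with H151. With SN-011 they kept 17.2%, 19.3%, 21.8% and 18.9%. These shares moved with single libraries. For Ifit1 with H151 the share was 17.2% without WT replicate 1, the higher WT library, and 7.31% without WT replicate 2. For Ifit3b with H151 these values were 16.9% and 7.76%. For Ifit2 and Ifit3 with H151 the H151 libraries moved it most, from 8.48% without replicate 2 to 19.5% without replicate 1 for Ifit2 and from 10.2% to 19.3% for Ifit3. Among 21 other interferon-stimulated antiviral genes, all higher in Trex1-KO, the median share kept was 26.1% with H151 and 29.3% with SN-011, and 19 and 18 of the 21 kept more than the highest of the 4 IFIT genes. With single libraries left out for all these genes alike, the numbers were 16 to 19 and 16 to 18. Mx1 and Cmpk2 kept less than any of the 4 with H151, at 10.4% and 10.9%, and with SN-011 Parp14 and Mx1 did, at 15.6% and 17.1%. Irf1, a gene of the interferon signalling list, kept 8.90% with H151 and 2.85% with SN-011. The difference between the lists was not tested.

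Per kilobase of exon (RPKM, computed from the counts), the order of the members was the same in all 6 Trex1-KO genotype libraries, treated or not. Ifit3 came first at a mean of 192 ± 11.7 RPKM in Trex1-KO (SD, n = 2), followed by Ifit2 at 147 ± 8.27 RPKM, Ifit1 at 82.5 ± 12.1 RPKM, Ifit3b at 30.2 ± 0.331 RPKM, Ifit1bl1 at 12.9 ± 1.5 RPKM and Ifit1bl2 at 0.331 ± 0.0571 RPKM. In Trex1-KO no neighbours in this order overlapped. In WT the first 3 kept that order, at 35.1 ± 7.36, 25.8 ± 8.84 and 15.9 ± 5.30 RPKM, but neighbouring genes among these 3 overlapped between libraries. Ifit1bl1 stood above Ifit3b in both WT libraries, by 7.74 against 7.72 RPKM in replicate 1 and by 6.89 against 5.25 RPKM in replicate 2. The first of these pairs differs by far less than the spread between libraries.

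**Figure D4:**
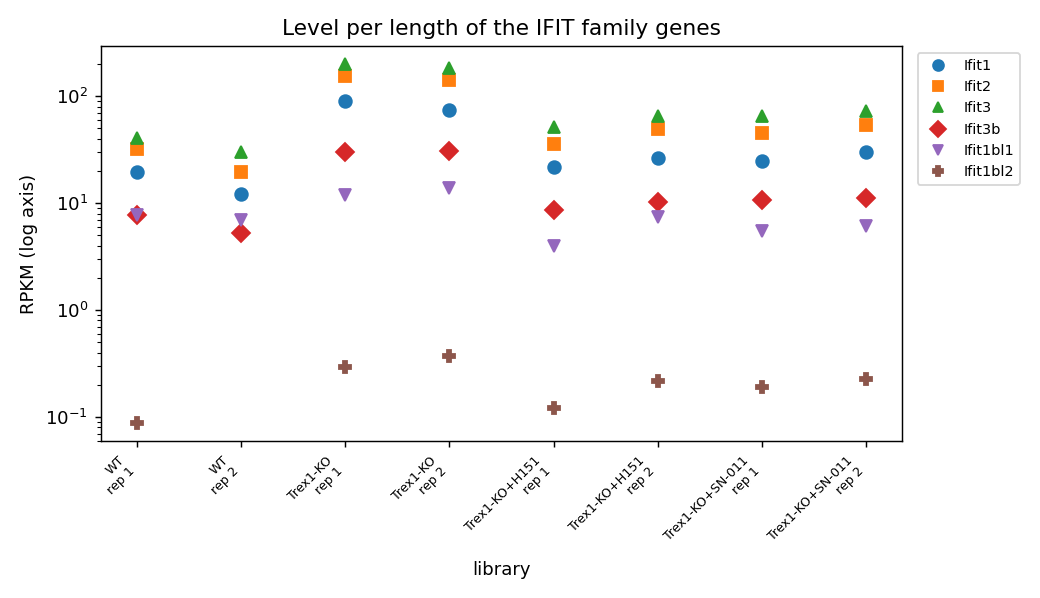
Level per length (RPKM) of each IFIT gene in the 8 libraries on a log axis, 1 symbol per gene. Ifit3, Ifit2 and Ifit1 lead in every library, and Ifit1bl2 is the lowest, with no point in WT replicate 2 where it had 0 counts. Ifit1bl1 and Ifit3b change places between the WT and the Trex1-KO genotype libraries, but the level of Ifit3b is uncertain because it shares stretches with Ifit3.

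Since Ifit1bl1 rose less than the 4 genes above, it made up a smaller part of the family's counts in Trex1-KO. It gave 6.21% (exact 95% interval 5.47 to 7.02) and 8.31% (7.31 to 9.40) of the family's counts in the WT libraries. In Trex1-KO it gave 2.09% (1.88 to 2.32) and 2.71% (2.47 to 2.96). With H151 the shares were 2.86% and 4.03%, and with SN-011 3.17% and 3.07%. Every Trex1-KO genotype library lay below both WT libraries, and every antagonist library lay above both Trex1-KO libraries. An exact two-sided permutation test over 2 against 2 libraries cannot go below p = 0.333, which is the value it gave for Trex1-KO against WT. Ifit3b gave 18.0% and 16.7% of the summed counts of Ifit3 and Ifit3b in WT and 14.6% to 16.2% in the other 6 libraries, so both WT libraries lay above the others. The exact 95% interval of WT replicate 1 (15.8 to 20.3) lay above that of Trex1-KO replicate 1 (13.7 to 15.6), the intervals overlapped in every other pairing of a WT library with one of the 6, and the permutation test of Trex1-KO against WT again gave its smallest p, 0.333.

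**Figure D5:**
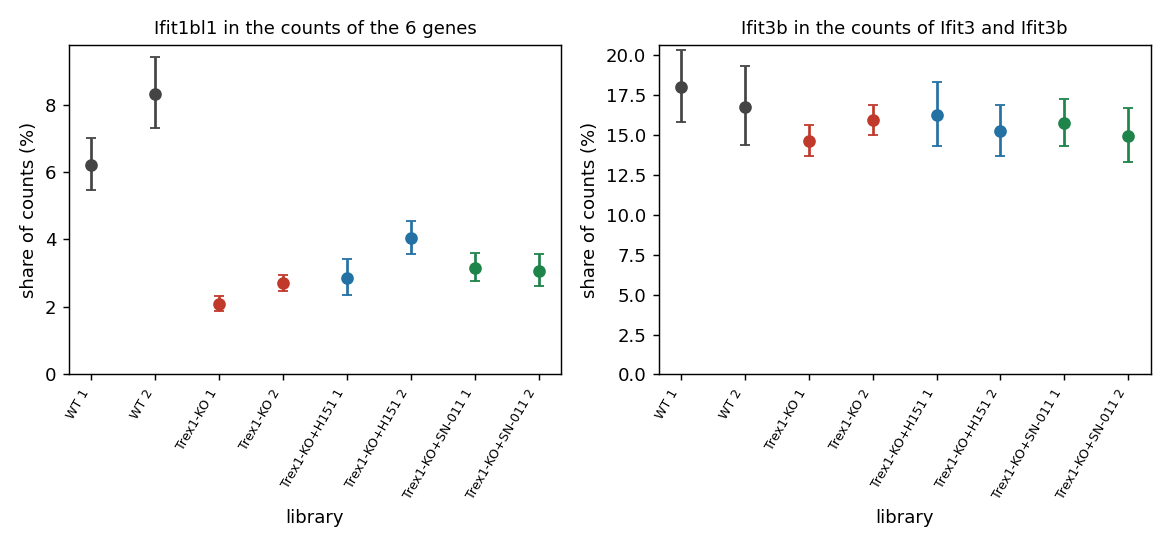
Share of the family's counts given by Ifit1bl1 (left) and share of Ifit3b in the summed counts of Ifit3 and Ifit3b (right) in each library, in percent, with exact 95% binomial intervals. Ifit1bl1 falls from 6.21% and 8.31% in WT to between 2.09% and 4.03% in the other libraries, and Ifit3b is at 18.0% and 16.7% in WT and between 14.6% and 16.2% in the others.

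Across the 8 libraries, log2 CPM of Ifit1, Ifit2, Ifit3 and Ifit3b each followed the mean of the other members closely (Pearson r between 0.988 and 0.998). Ifit1bl2 (r = 0.811) and Ifit1bl1 (r = 0.680) followed it less. Because the groups differ so much in these genes, the coefficients describe the group pattern and carry no test. Of the 14585 other tested genes, Herc6 (r = 0.998), Rsad2 (0.998), Dhx58 (0.996), Gm12250 (0.995) and Slfn5 (0.992) had the pattern most like the family's mean.

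The wider interferon programme moved in the same comparisons. Of 14 tested genes of interferon signalling (15 listed), 9 were higher in Trex1-KO than in WT, 6 fell with H151 and 6 fell with SN-011, with list medians of 0.54, -0.31 and -0.25 on the log2 scale against medians of -0.00, 0.00 and 0.01 over all tested genes. Irf7, the interferon-inducible regulator that amplifies interferon production, rose by 2.62 ± 0.12 (log2 fold change ± SE, adjusted p = 7.16e-09 in edgeR) and kept 43.2% of its rise with H151 and 51.5% with SN-011. Stat2 and Irf9, which encode subunits of ISGF3, rose by 1.57 and 0.61. Usp18, a negative regulator of the interferon receptor, rose by 2.63 ± 0.16 (SE). Irf1 rose by 0.64 and Irf2, which binds the same kind of element, by 0.46, whereas Irf3 had a log2 fold change of -0.07 ± 0.09 (SE, adjusted p = 0.666 in edgeR). Ifnb1, the interferon-β gene itself, had too few counts to be tested.

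All 21 other antiviral genes were higher in Trex1-KO, with a median log2 fold change of 1.59. Ifi44 (3.92), Oasl1 (3.80), Oasl2 (2.43) and Oas3 (2.39) had the largest changes, followed by Rsad2 (2.23), the enzyme that makes a chain-terminating nucleotide, and the dynamin-like Mx2 (2.19). With H151 all 21 fell (median -1.06), and with SN-011 20 fell (median -1.01), the exception being the tether Bst2 at -0.28 ± 0.10 (SE, adjusted p = 0.277 in edgeR).

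Genes tied to what IFIT proteins act on were not called. None of the 8 enzymes of the RNA 5′ end was called in Trex1-KO against WT or with either antagonist against Trex1-KO in edgeR (median log2 fold change -0.02 in Trex1-KO against WT), 0 of the 8 had an unadjusted p under 0.05, and DESeq2 called 0. Cmtr1, which adds the cap methyl group that Ifit1 reads, had 5.13 ± 0.109 CPM in Trex1-KO and 5.45 ± 0.33 CPM in WT (SD, n = 2), with a log2 fold change of -0.09 ± 0.22 (SE). None of the 14 eIF3 subunits was called in these comparisons by edgeR or DESeq2 (median -0.09 in Trex1-KO against WT), with 2, 0 and 0 of them at an unadjusted p under 0.05 in edgeR.

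The genes flanking the family showed no shared rise. Of 6 tested genes among the 13 annotated within 300 kb of the family, 1 was higher and 2 were lower in Trex1-KO than in WT, and 0 were called by edgeR or DESeq2 with either antagonist against Trex1-KO (1 and 2 at an unadjusted p under 0.05 in edgeR for H151 and SN-011). Lipa, a lysosomal lipase, was higher by 0.23 ± 0.05 (adjusted p = 0.00466), Pank1, an enzyme of coenzyme A synthesis, was lower at -0.70 ± 0.16 (adjusted p = 0.00655), and Acta2, smooth muscle actin, was lower at -1.52 ± 0.10 (adjusted p = 1.89e-07), as log2 fold change ± SE in edgeR. Acta2 is also a gene of myofibroblasts, and the stromal marker sums given above were lower in the same libraries.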

How the data were processed

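Polyadenylated RNA was sequenced as 150-base read pairs from 8 mouse macrophage libraries, a length that the labels and the methods share although they name different instruments. Per the methods, the authors trimmed reads, aligned them with HISAT2 and counted unique read pairs per gene with featureCounts; the submitters' processing notes name HTSeq instead, with build mm10, and tool versions are not given in the sources used here. The deposited files hold raw counts per gene for each library, with no rows other than genes, and 54495 of 54532 gene IDs matched a GENCODE M21 symbol. Counts were fitted for all 8 libraries together in edgeR 4.0.16 (R 4.3.3), with TMM factors of 0.973 to 1.04, a filter keeping genes with at least about 10 counts in 2 libraries (14591 genes), the quasi-likelihood test and Benjamini-Hochberg adjustment over all tested genes at 0.05. CPM use TMM-scaled depths and RPKM divide by the union of annotated exons. The fit was tested on simulated data. DESeq2 1.42.0, other scalings and filters, a replicate block and each library left out served as alternatives, with the shares of the rise kept, and the counts of genes that kept more, recomputed without single libraries after the data were seen. Named genes were all 6 members, a short list of regulators, the largest changes among up to 6 called genes of each list, flanking genes and the 5 genes most alike. Mx1, Cmpk2, Parp14, Bst2, Atrip, Adgre1, Cd68, Fcgr1, Lyz2, Xcr1, Zbtb46, Cd4, Col1a1, Col1a2 and Dcn were named after their values were seen. Of the regulators, 1 is not reported here. The members and lists were chosen with earlier results of these data known. Intervals on counts cover counting error only.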

Additional observations from a re-analysis of the deposited data

How the results depend on the processing

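Of the alternatives run, none turned the direction of a member in Trex1-KO against WT or in either antagonist against Trex1-KO, and Ifit1, Ifit2, Ifit3 and Ifit3b kept their calls in these 3 comparisons throughout. The number of members called was 4 to 6, 5 to 5 and 4 to 5 in these comparisons when single libraries were left out, the 6 counting Ifit1bl2, without which the first range is 4 to 5. It was 1 to 4 for H151 against WT (2 with DESeq2, and 2 without H151 replicate 2, of which Ifit1bl1 was lower), 2 to 5 for SN-011 against WT (the 5, without WT replicate 1, counts Ifit1bl2 at an adjusted p of 0.0454 in edgeR) and 0 throughout between the antagonists. The near-zero difference of Ifit1bl1 between SN-011 and H151 changed sign, to 0.00377 with total counts only, 0.0148 with DESeq2, 0.000443 with a filter at 1 count, 0.00451 with only the 2 groups compared and 0.0302 with a replicate block. Leaving out single libraries moved it between -0.36 and 0.54, that of Ifit2 between -0.00628 and 0.45, that of Ifit1bl2 between -0.0867 and 0.76, and Ifit1bl1 in H151 against WT between -0.88 and 0.0161. Over all genes, the number called with a filter at 1 count was 525 for H151 and 679 for SN-011 against Trex1-KO, and 266 between the antagonists, where it was 38 with DESeq2 and 44 with the replicate block, against 23. With single libraries left out these totals ran from 1556 to 2651 for Trex1-KO against WT, 231 to 357 and 131 to 493 for H151 and SN-011 against Trex1-KO, 2 to 291 between the antagonists, 971 to 1790 for H151 against WT and 909 to 1933 for SN-011 against WT. The cause was not tested, beyond the smaller number of libraries. The labels do not say what a replicate number stands for. Same-numbered libraries correlated between -0.02 and 0.19 in their deviations from the group means, so the numbers were not taken as pairs, and the block changed no member's call. Depth limits Ifit1bl2 most, at no more than 19 counts in a library.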
